A study of Mus musculus with 12 samples.

Results

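Interferon-stimulated antiviral genes are transcripts that cells can switch on in response to interferon, and 50 of them were listed by gene symbol. Whether LPS raised them through an interferon receptor was not tested. The deposited tables held rows for 48 of the 50 among 16920 genes, and all 48 were abundant enough to be among the 12064 genes tested. The remaining 2, Mx1 and Mx2, were not analysed here. Peritoneal macrophages came from wild-type (WT) C57BL/6 animals or from animals that the labels give as Ythdf1-/- knockouts (KO), drawn into the peritoneum over 3 days with 6% starch broth per the series record or with thioglycollate per the paper's methods, and cultured overnight. They were then given PBS or lipopolysaccharide (LPS, a component of the outer membrane of gram-negative bacteria) at 1 µg/mL for 6 h, which made 4 groups (WT with PBS, KO with PBS, WT with LPS, KO with LPS) of 3 libraries each. The comparisons asked how the antiviral genes responded to LPS in each genotype label and whether the label changed that response. The paper describes the knockout line as made with CRISPR/Cas9, and the labels do not say how many mice stand behind a library, so that p-values measure the spread between these libraries.

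In macrophages, LPS is sensed by TLR4, whose adaptor TRIF leads through the kinases TBK1 and IKKε to the transcription factor IRF3 and to secretion of interferon β. Interferon then acts on the same and on neighbouring cells through its receptor, the kinases JAK1 and TYK2, and a transcription factor complex that binds the interferon-stimulated response element (ISRE) in target promoters. The proteins made from these targets block viruses at entry, translation, genome copying and budding, and several of them feed back on the pathway itself.

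Ythdf1, the targeted gene, encodes a protein that binds N6-methyladenosine on mRNA, and its transcript was not lost in the KO-labelled libraries. Its normalised read count, in CPM (counts scaled to a common library size, edgeR's normalised unit), was 43.6, 45.0 and 41.9 in WT with PBS, and 55.4, 58.1 and 58.1 in KO with PBS. It was 212, 198 and 194 in WT with LPS, and 196, 192 and 205 in KO with LPS. The level was higher in KO than in WT under PBS (log2 fold change 0.40 ± 0.06 SE, edgeR adjusted p = 0.000133) and did not pass under LPS (-0.03 ± 0.06, adjusted p = 0.724). Read counts of a gene do not measure its protein, and the paper gives genotyping of the line and a YTHDF1 immunoblot of chimeric mice. The genotype is therefore given as labelled throughout. Total counts ranged from 21546274 to 22017005 per library, and 3 counts, used as a floor, equalled 0.105 to 0.187 CPM, which covers counting error only. The macrophage markers (8 genes) summed to between 17170 and 19943 CPM in all 12 libraries, most of it from Lyz2 and Cd68, while natural killer cell markers (4 genes) reached at most 0.289 CPM, B cell markers (5 genes) 1.92 CPM, plasmacytoid dendritic cell markers (4 genes) 3.76 CPM, mesothelial markers (4 genes) 6.15 CPM and neutrophil markers (3 genes) 16.0 CPM. T cell markers (5 genes) reached 13.2 CPM, nearly all of it from Lck, and Cd3d, Cd3e and Cd3g stayed at or under 0.123 CPM. Skeletal muscle markers (5 genes) summed to 17.2 to 22.1 CPM in WT with PBS and 27.8 to 33.4 CPM in WT with LPS, but to 0.123 to 0.249 CPM in KO with LPS, where Myh4, Myl1 and Tnnt3 were at 0. Under PBS the KO-labelled libraries were split on this list, with 15.1 and 18.7 CPM in replicates 1 and 2 and 0.106 CPM in replicate 3.

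Promoters were examined first, because the ISRE is the sequence through which interferon is known to act. RefSeq promoter sequences of build GRCm38.p6, each from 250 bases before to 50 bases after a transcript start, were held for 42 of the 48 genes (53 windows, since some genes have several starts); Usp18, Oas2, Rtp4, Parp9, Parp14 and Tor3a had none. The ISRE core was searched as GAAANNGAA on either strand, which reads TTCNNTTTC on the other strand. It was present in 21 of 53 windows of the members (39.6%) against 2812 of 32851 windows of all genes (8.56%), or in 19 of 42 member genes (45.2%) against 9.76% of genes. The core with a further A at its end was held by 16 member genes (38.1%, against 3.99%), all of these being counted in the 19 as well. A gamma-activated site, searched as TTCNNNGAA, which reads the same on both strands, was held by 8 member genes (19.0%, against 9.55%), and 2 of the 39 ISRE core matches shared bases with such a match. Of the 39 matches, 30 began before the transcript start and 25 of those within 150 bases of it. Matches were counted per window, and those of Slfn8 at -135 and -47 are the same site seen from different starts. A match is a description of the letters and no evidence of binding, and its absence says only that these letters are not in the window.

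The promoters below are those of the member with the largest rise with LPS in WT (Cmpk2, chr12:26468965-26469264, plus strand), the smallest rise (Lgals3bp, chr11:118401910-118402209, minus strand), the ubiquitin-like modifier that names the conjugation cycle (Isg15, chr4:156200769-156201068, minus strand) and the member with the largest difference in response between genotype labels (Ifit3, chr19:34583279-34583578, plus strand). They are written 5′ to 3′ on the strand of the gene, and capitals mark the ISRE core on either strand.
Cmpk2: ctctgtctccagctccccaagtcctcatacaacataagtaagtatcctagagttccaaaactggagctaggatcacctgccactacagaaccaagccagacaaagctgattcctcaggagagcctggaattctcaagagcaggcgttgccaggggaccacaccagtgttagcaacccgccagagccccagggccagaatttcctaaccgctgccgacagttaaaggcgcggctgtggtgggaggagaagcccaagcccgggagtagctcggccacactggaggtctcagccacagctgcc
Lgals3bp: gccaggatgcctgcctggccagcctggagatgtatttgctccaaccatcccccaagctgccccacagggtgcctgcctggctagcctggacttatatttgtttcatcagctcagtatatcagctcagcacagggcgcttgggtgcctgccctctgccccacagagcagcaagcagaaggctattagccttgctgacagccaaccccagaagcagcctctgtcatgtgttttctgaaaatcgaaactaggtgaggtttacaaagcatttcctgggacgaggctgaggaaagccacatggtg
Isg15: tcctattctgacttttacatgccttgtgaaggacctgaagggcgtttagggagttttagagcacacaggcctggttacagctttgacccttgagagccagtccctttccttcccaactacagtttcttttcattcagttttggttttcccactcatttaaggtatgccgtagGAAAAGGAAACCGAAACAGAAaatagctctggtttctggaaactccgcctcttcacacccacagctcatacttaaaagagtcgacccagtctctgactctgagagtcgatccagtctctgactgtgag
Ifit3: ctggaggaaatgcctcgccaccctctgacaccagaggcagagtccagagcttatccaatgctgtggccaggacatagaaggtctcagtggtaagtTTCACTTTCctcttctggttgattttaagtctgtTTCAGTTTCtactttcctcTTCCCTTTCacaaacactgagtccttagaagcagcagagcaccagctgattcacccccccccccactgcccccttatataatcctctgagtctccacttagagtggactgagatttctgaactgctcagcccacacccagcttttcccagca

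Isg15 held 3 overlapping copies of the core, which began at -78, -72 and -66 from the transcript start and ran together into 1 stretch. Ifit3 held 3 copies on the opposite strand, TTCACTTTC at -155, TTCAGTTTC at -121 and TTCCCTTTC at -102. Ifit3b, its near copy, held the same 3 words with the same spacing at -187, -153 and -134, and Ifit1 held 3 at -109, -103 and -84. Cmpk2 and Lgals3bp, at the ends of the range of response, both held none. The median log2 rise with LPS in WT was 4.26 for the 19 genes with a core (2.27 to 9.13) and 4.25 for the 23 genes without (1.59 to 9.27), so that the members with and without the core differed little in their median response.

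Many of the members lie side by side. The 4 Ifit genes occupy chr19:34550550-34650009, Oas2, Oas3, Oas1g and Oas1a lie at chr5:120730333-120907544, Oasl2 and Oasl1 at chr5:114896926-114937911, and Parp14, Dtx3l and Parp9 at chr16:35831892-35972621. Slfn5, Slfn8 and Slfn1 occupy chr11:82951349-83122670, and Rsad2 and Cmpk2 share chr12:26442743-26479837. Neighbours with near-identical copies can exchange reads. Ifit1, Ifit3, Ifit3b, Isg15, Oas1a, Oas1g, Oas3, Eif2ak2, Ifitm3, Parp9, Dtx3l, Sp100, Trim30a, Slfn5, Slfn8, Xaf1 and Phf11d held fractional counts in all 12 libraries, and the split of reads between them and other genes is uncertain. The same holds in part for Ube2l6 and Slfn1 (fractional in 11 libraries), Ifi47 (10), Rtp4 (5), Ifi44 (3), Pml and Trim21 (2 each) and Oas2 (1).

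LPS raised every one of the 48 members in both genotype labels. In WT all 48 were higher with LPS (edgeR quasi-likelihood test, adjusted p under 0.05), whereas 36.5% of all genes tested were called higher and 40.2% lower. In KO all 48 were higher as well, against 38.8% of all genes higher and 41.1% lower. None of the 48 was lower in either, and none was at an unadjusted p under 0.05 or in DESeq2. The median log2 fold change of the members was 4.21 in WT (1.59 to 9.27) and 4.81 in KO (2.02 to 9.92), while the median over all genes tested was -0.05 and -0.04. Together the members held 0.312% to 0.334% of counts in WT with PBS, 0.231% to 0.298% in KO with PBS, 4.70% to 4.95% in WT with LPS and 5.30% to 5.38% in KO with LPS. In bulk RNA, fewer cells of a type and less RNA per cell cannot be told apart.

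**Figure D1:**
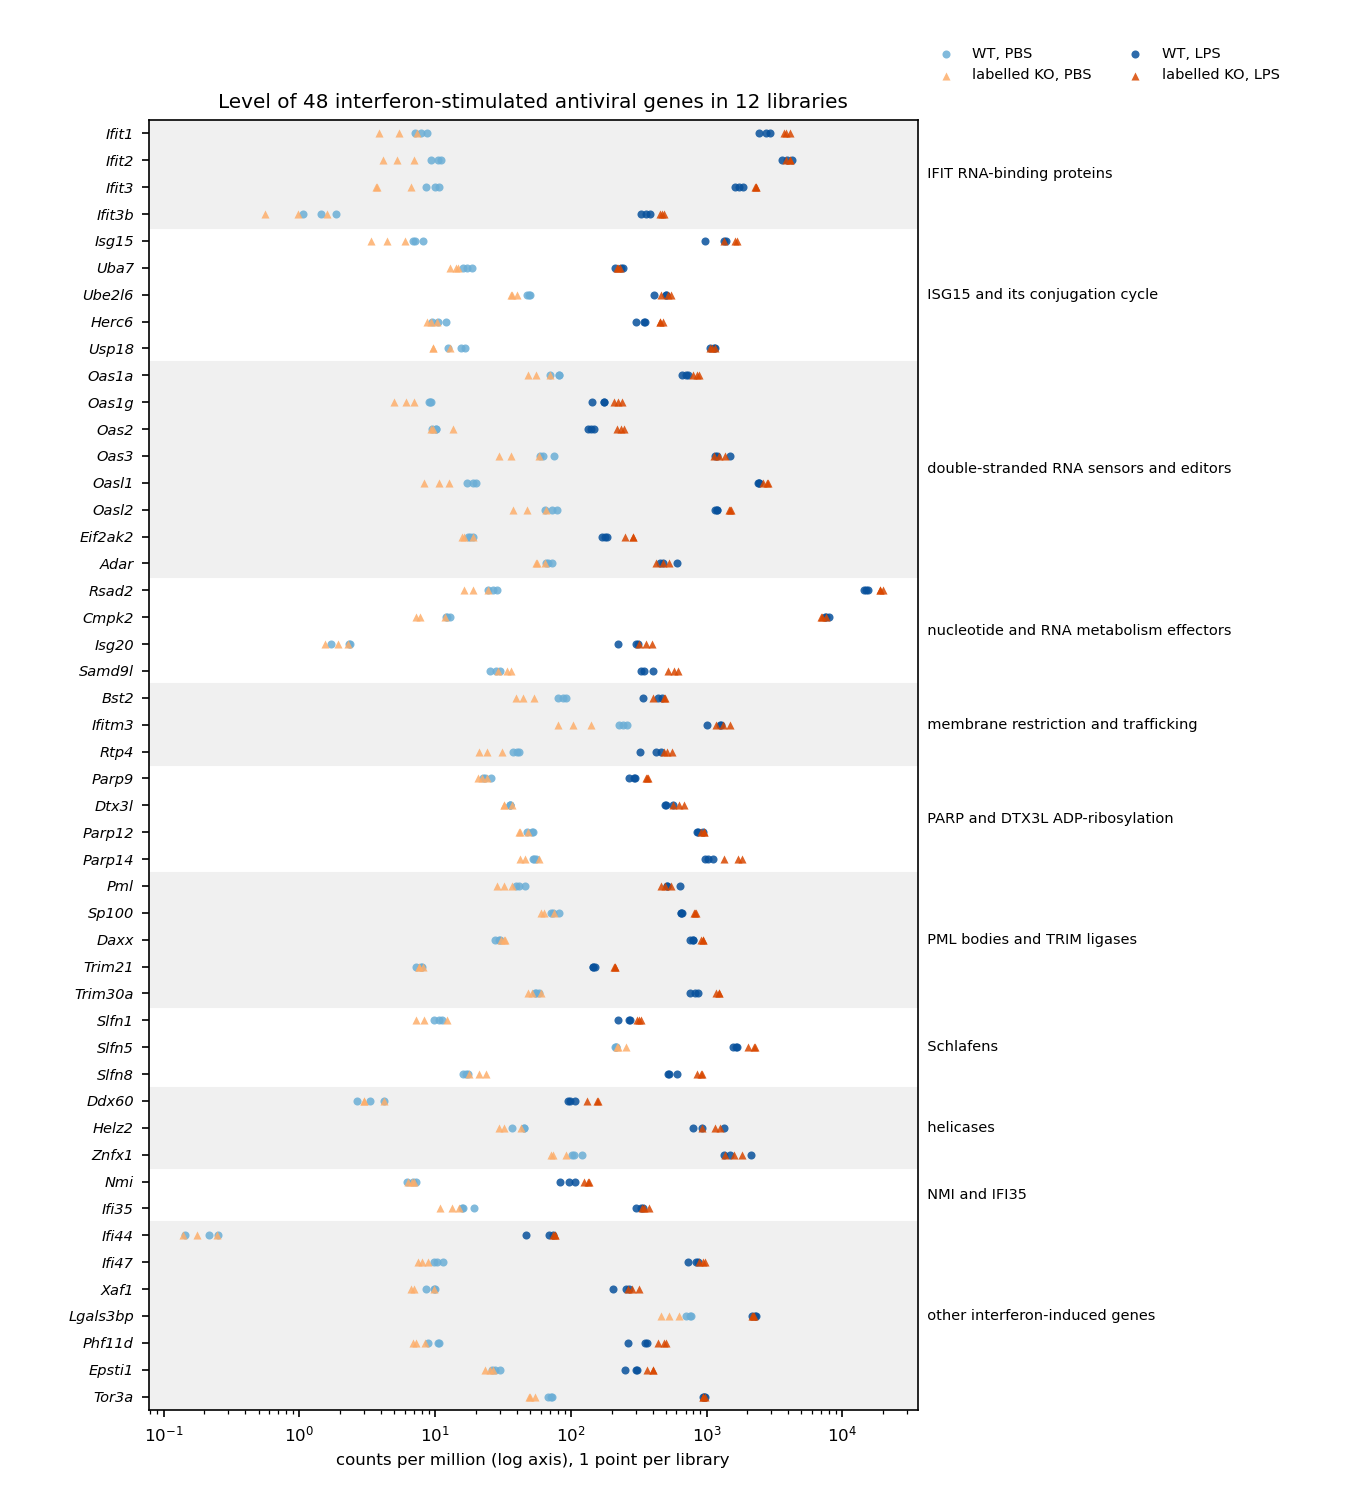
Level of each of the 48 members in each of the 12 libraries, in CPM on a log axis, with 1 point per library, ordered by role (right). For every member the 6 LPS libraries lie above the 6 PBS libraries, and the 2 genotype labels lie close together on this scale.

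The order of the members changed with LPS. Per kilobase of merged exons, the most abundant transcripts in WT with PBS were Ifitm3 (358 CPM per kb), Lgals3bp (262), Bst2 (95.8) and Oas1a (41.5), and the least was Ifi44 (0.0331). In WT with LPS they were Rsad2 (3450.1 CPM per kb), Cmpk2 (1845), Ifitm3 (1744), Isg15 (1639) and Ifit1 (1020.2), and Ifi44 remained last (10.3). Across the 48 members, Spearman's rho between the 2 levels was 0.535, a description over genes of the same libraries. The same 3 genes, Rsad2, Ifitm3 and Cmpk2, stood among the first 4 in KO with LPS, where Isg15 was second (2050.3 CPM per kb). The span from the lowest to the highest member narrowed from 10810-fold in WT with PBS to 334-fold in WT with LPS, and with Ifi44, which was just above the floor with PBS, left out, from 915-fold to 297-fold.

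The largest rises were those of Cmpk2 and Rsad2, neighbours on chromosome 12 that encode a mitochondrial nucleotide kinase and viperin, which makes a chain-terminating CTP analogue. Rsad2 rose from 26.5, 28.7 and 24.7 CPM to 15007, 15355 and 14506 CPM in WT, and from 19.1, 16.4 and 24.6 CPM to 19106, 19053 and 19969 CPM in KO. Its log2 fold change was 9.13 ± 0.14 (SE) in WT and 9.92 ± 0.14 in KO (edgeR adjusted p = 6.08e-18 and 2.84e-18), and in KO it was the largest of the members. Cmpk2 rose from 12.3, 12.8 and 12.1 CPM to between 7460.5 and 7999.6 CPM in WT (9.27 ± 0.15), and from 7.28, 7.72 and 11.8 CPM to between 7008 and 7579.6 CPM in KO (9.66 ± 0.15). Ifit2 (8.57 ± 0.15 in WT, 9.53 ± 0.15 in KO) and Ifit1 (8.43 ± 0.17 and 9.45 ± 0.18) followed in both. Ifi44, whose function is poorly defined, came close behind in WT with 8.25 ± 0.25, but it started from 0.145 to 0.250 CPM, just above the floor.

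Lgals3bp, Bst2 and Ifitm3, the 3 most abundant members per kilobase with PBS in WT, had the 3 smallest rises in WT. Lgals3bp, which encodes a secreted galectin-binding glycoprotein, went from 755, 772 and 709 CPM to 2153, 2301 and 2269 CPM in WT, a log2 fold change of 1.59 ± 0.08. In KO it went from 461, 528 and 625 CPM to 2186, 2226 and 2156 CPM, a change of 2.02 ± 0.09. Bst2 (tetherin, which holds budding virions on the cell surface) rose by 2.27 ± 0.13 in WT and 3.33 ± 0.14 in KO, and Ifitm3 (which hinders fusion of viruses in endosomes) by 2.28 ± 0.18 and 3.61 ± 0.19. Adar, the editor that turns adenosine into inosine in double-stranded RNA, rose by 2.90 ± 0.11 and 3.03 ± 0.11, and in KO Slfn5, a schlafen, was also among the 4 smallest with 3.23 ± 0.07. Each of these lay above the PBS libraries in all 3 LPS libraries of its genotype.

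**Figure D2:**
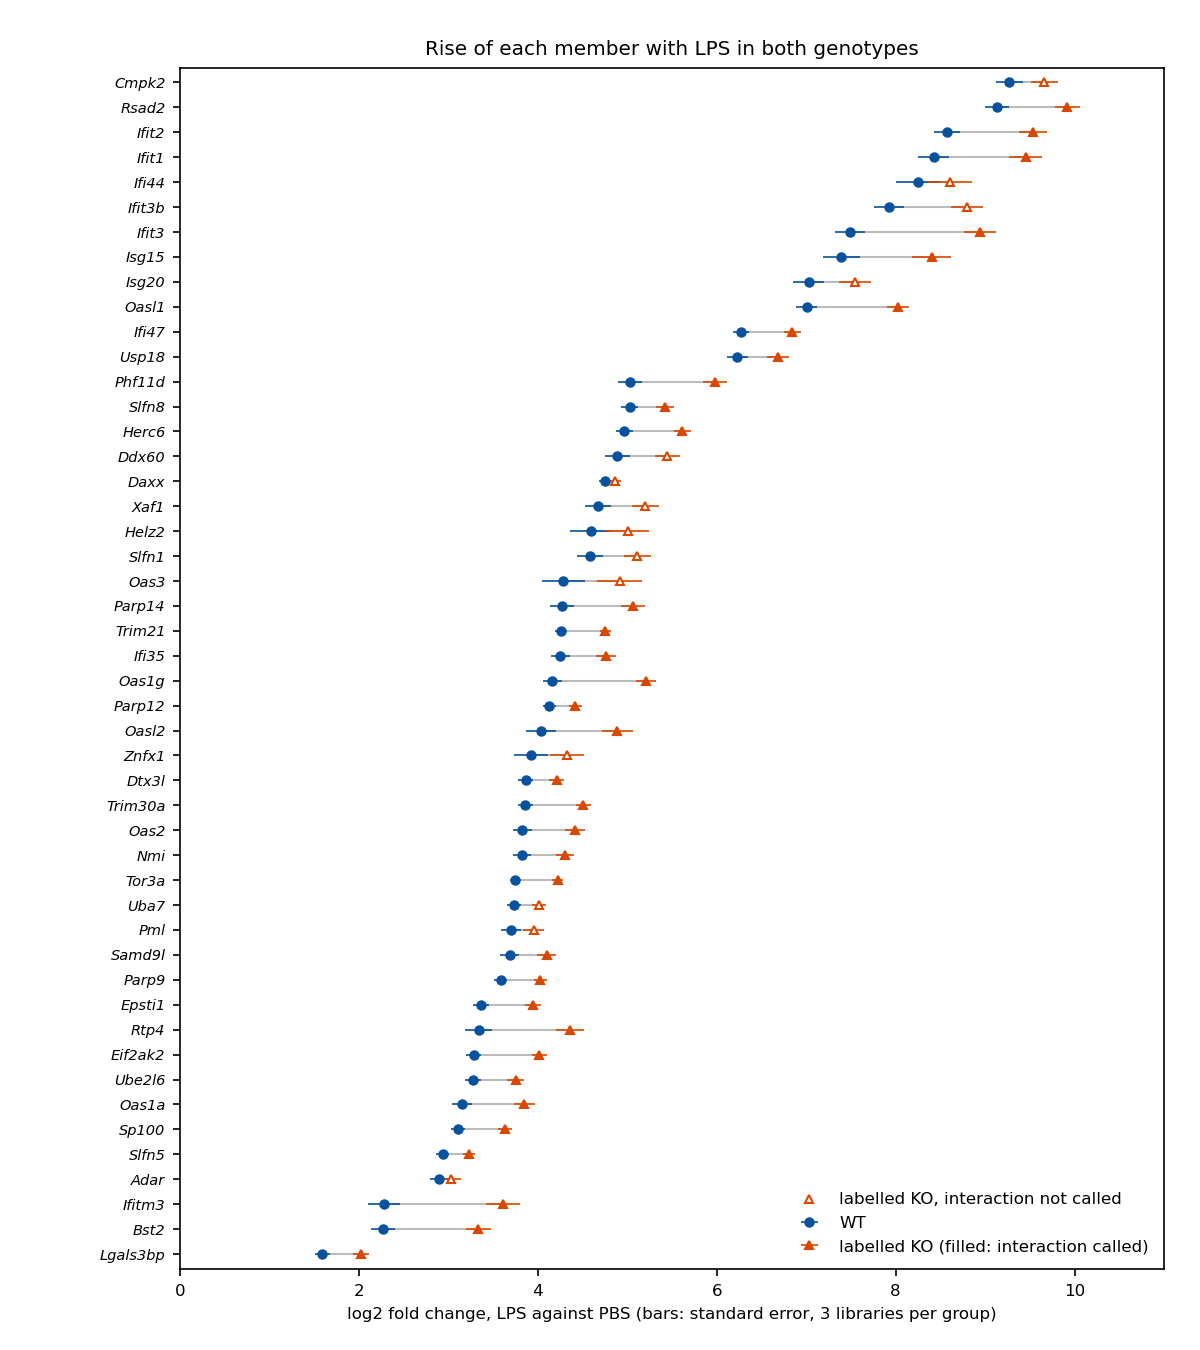
Log2 fold change of each member with LPS against PBS in WT (circles) and KO-labelled cells (triangles), with standard errors, ordered by the rise in WT. The triangle lies to the right of the circle for all 48 members, and it is filled for the 34 whose difference in response passed the test.

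Without LPS, many of the members were lower in the KO-labelled cells. Under PBS, 22 of 48 were lower (45.8%, against 13.0% of all genes tested) and 1 was higher (against 12.3%), and the sign was negative for 42 of 48. The members' median log2 difference, KO against WT, was -0.34 (-1.16 to 0.31), and that of all genes tested was 0.00. All 3 KO libraries lay below all 3 WT libraries for 21 of 48 members, against 24.6% of all genes tested. Mesothelial markers were at 4.83 to 5.64 CPM in these WT libraries and at 2.30 to 3.23 CPM in these KO libraries, with 2 of 4 lower (Wt1, -1.61 ± 0.24, and Upk3b, -1.11 ± 0.39). Of the 8 macrophage markers Cd14 was higher (0.20 ± 0.07) and Adgre1 lower (-0.33 ± 0.05). Their part in the members' difference was not tested. The calls of 9 members, Ifit2, Ifit3, Oas1g, Oasl1, Bst2, Ifitm3, Rtp4, Lgals3bp and Tor3a, were kept under all 19 alternatives in scaling, filter, model or libraries, and each of the other 14 was lost under at least 1.

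The genes of membrane restriction and trafficking were lower under PBS in 3 of 3 cases (against 13.0% of all genes tested). Ifitm3 was at 242, 259 and 227 CPM in WT and at 81.1, 104 and 139.7 CPM in KO (-1.16 ± 0.17, adjusted p = 0.000687 in edgeR). Bst2 was at 87.0, 92.2 and 80.3 CPM in WT and at 39.7, 44.6 and 53.2 CPM in KO (-0.92 ± 0.13, adjusted p = 0.000304). Neither gene's groups overlapped. Rtp4, an interferon-induced chaperone of membrane receptors, followed with -0.65 ± 0.15. Among the IFIT proteins, which bind foreign RNA and hold back its translation, 3 of 4 were lower. Ifit3 was at 10.7, 9.91 and 8.51 CPM in WT and 3.75, 3.69 and 6.62 CPM in KO (-1.05 ± 0.17, adjusted p = 0.000664). Ifit2 was at 10.5, 11.1 and 9.40 CPM in WT and 5.25, 4.14 and 6.98 CPM in KO (-0.92 ± 0.14, adjusted p = 0.00027). The groups were apart for both, with the third KO replicate nearest to WT. Ifit1 passed narrowly (-0.51 ± 0.17, adjusted p = 0.0459), and Ifit3b, at 0.562 to 1.86 CPM, did not pass (-0.48 ± 0.28, adjusted p = 0.243).

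Of the double-stranded RNA sensors and editors, 4 of 8 were lower under PBS (against 13.0% of all genes tested). They were Oasl1 (-0.83 ± 0.11), which restrains translation of Irf7 mRNA, Oas1g (-0.60 ± 0.12), Oasl2 (-0.51 ± 0.15) and Oas1a (-0.43 ± 0.11), the last 3 from the 2′-5′-oligoadenylate synthetase family whose products activate RNase L. Oas3 had a difference of -0.67 ± 0.22 but a wide spread and did not pass (adjusted p = 0.0513), nor did Oas2 (0.13 ± 0.11), Eif2ak2 (PKR, -0.09 ± 0.08) or Adar (-0.22 ± 0.11). Rsad2 (-0.41 ± 0.11) and Cmpk2 (-0.48 ± 0.13) were lower, as were Pml, the scaffold of PML nuclear bodies (-0.39 ± 0.11), and Ifi35 (-0.38 ± 0.11). Among the others Tor3a (-0.47 ± 0.06), Lgals3bp (-0.47 ± 0.08), Phf11d (-0.42 ± 0.14) and the GTPase Ifi47 (-0.38 ± 0.09) were lower. None of the 4 PARP and DTX3L genes, which add or read ADP-ribose, none of the 3 schlafens and none of the 3 helicases was called lower. With 13.0% of all genes tested called lower, the absence of calls in lists this small is no result about them. Slfn8 was the 1 member that was higher, at 16.1, 17.0 and 17.6 CPM in WT and 21.1, 17.9 and 23.8 CPM in KO (0.31 ± 0.09, adjusted p = 0.0251), a call that was lost without KO replicate 3 (adjusted p = 0.0963), KO replicate 1 (0.0556), WT replicate 1 (0.0739) or WT replicate 2 (0.0632) with PBS.

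The 3 KO libraries with PBS did not sit together. Replicate 3 was the highest of its group in 46 of 48 members, whereas over all genes tested it was the highest in 35.6%. The members' median log2 ratio to the WT mean was -0.49 and -0.42 in replicates 1 and 2 but -0.09 in replicate 3. Their summed level was 1761, 1862 and 2282 CPM in the 3 KO libraries and 2455 to 2643 CPM in WT. Replicate 3 was also the KO library with PBS in which skeletal muscle markers were all but absent (0.106 CPM against 15.1 and 18.7 CPM), and the part of that difference in the members' levels was not tested. Without replicate 3, 29 members were lower under PBS, and without replicate 1 or replicate 2, 10 were. Without WT replicate 1, 12 were lower.

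**Figure D3:**
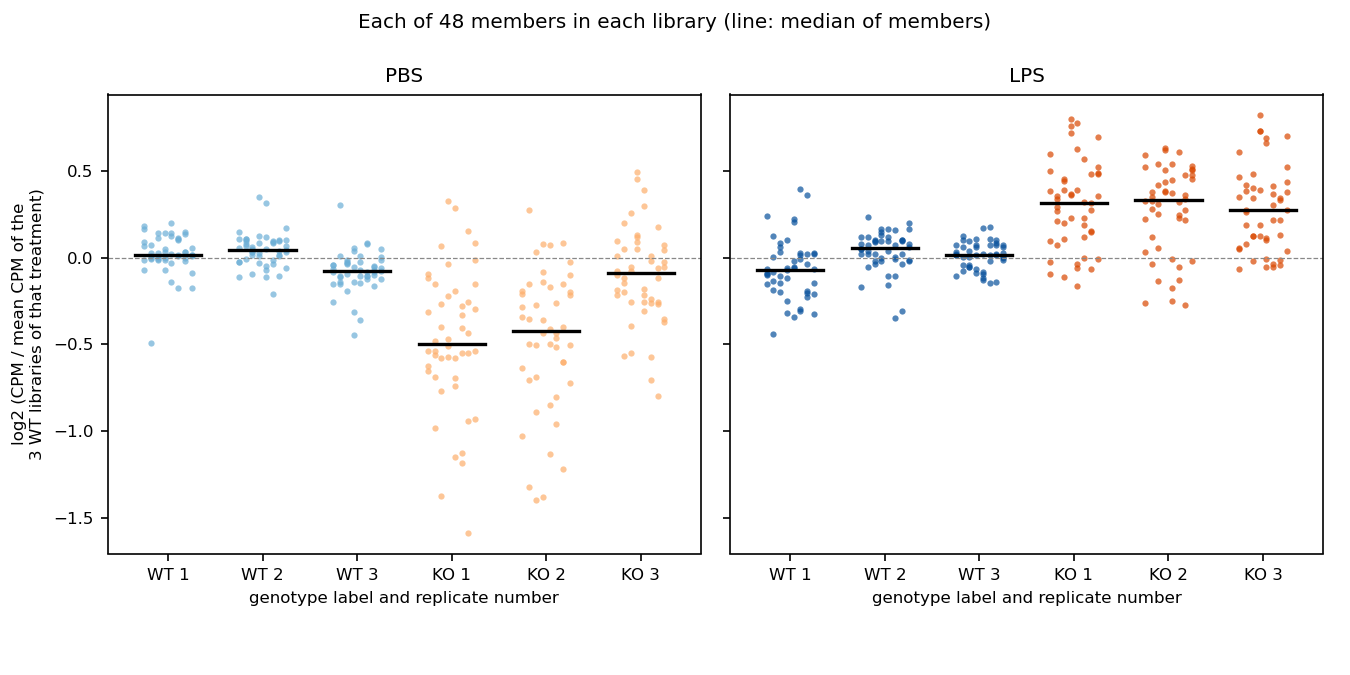
Log2 ratio of each of the 48 members in each library to the mean CPM of the 3 WT libraries of that treatment, with points for members and a line at the median of members. With PBS the medians of KO replicates 1 and 2 are -0.49 and -0.42 and that of replicate 3 is -0.09, and with LPS the 3 KO libraries lie between 0.27 and 0.33.

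With LPS the members' median difference had the other sign. In KO, 27 of 48 members were higher than in WT (56.2%, against 22.1% of all genes tested) and none was lower (against 19.3%). No member was lower at an unadjusted p under 0.05 in edgeR or in DESeq2. The median log2 difference was 0.33 (-0.14 to 0.72), against 0.00 for all genes tested. All 3 KO libraries were above all 3 WT libraries for 28 of 48 members, against 24.2% of all genes. The summed level of the members was 59556 to 61238 CPM in WT and 70169 to 72376 CPM in KO. Skeletal muscle markers were at 27.8 to 33.4 CPM in these WT libraries and at or under 0.249 CPM in these KO libraries, T cell markers (Lck) at 8.62 to 13.2 and 3.98 to 4.59 CPM, and mesothelial markers at 5.42 to 6.15 and 3.37 to 4.66 CPM. Of the 8 macrophage markers 3 were lower in KO with LPS, Mertk (-1.24 ± 0.07, adjusted p = 1.91e-09 in edgeR), Csf1r (-0.53 ± 0.11) and Cd68 (-0.21 ± 0.05), and Cd14 was higher (0.68 ± 0.06). Neutrophil markers were at 7.87 to 10.2 CPM in WT and 8.40 to 16.0 CPM in KO, which overlapped, and S100a8, the 1 of 3 abundant enough to test, was higher in KO (0.49 ± 0.19, adjusted p = 0.049). Their part in the members' difference was not tested. Under all 19 alternatives 20 of the 27 calls were kept, and those of Ifit3, Oas1a, Isg20, Rtp4, Dtx3l, Slfn1 and Ifi47 were each lost under at least 1.

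The largest differences with LPS were in genes that had not been lower with PBS. Oas2 was at 135, 140.5 and 147 CPM in WT and 245, 218 and 234 CPM in KO (0.72 ± 0.09, adjusted p = 1.39e-05 in edgeR), after 9.54 to 10.1 CPM and 9.37 to 13.6 CPM with PBS. Slfn8 was at 523, 602 and 527 CPM in WT and 930.2, 847 and 913 CPM in KO (0.70 ± 0.08, adjusted p = 5.82e-06). Samd9l, which restricts poxviruses, was at 344, 400.3 and 327 CPM in WT and 611, 518 and 575 CPM in KO (0.67 ± 0.09, adjusted p = 3.53e-05). Parp14, an ADP-ribosyltransferase, was at 1115, 1024 and 979 CPM in WT and 1709, 1352 and 1833 CPM in KO (0.65 ± 0.12, adjusted p = 0.000527). None of these 4 overlapped between the labels. Of the PARP and DTX3L genes 3 of 4 were higher, of the PML and TRIM genes 4 of 5 and of the schlafens 3 of 3 (against 22.1% of all genes tested). These included Trim30a (0.58 ± 0.07), Trim21, a cytosolic antibody receptor (0.51 ± 0.05), Slfn5 (0.42 ± 0.06), Parp9 (0.35 ± 0.06), Sp100 (0.33 ± 0.07) and Daxx (0.26 ± 0.05). Eif2ak2, the kinase that halts translation on sensing double-stranded RNA, was higher by 0.64 ± 0.07, and the helicase Ddx60 by 0.56 ± 0.10. Ifit1 (0.52 ± 0.12), Ifit3 (0.40 ± 0.12) and Ifit3b (0.40 ± 0.11) were higher, while Ifit2 was at 3593 to 4282 CPM in WT and 3837 to 4153 CPM in KO (0.04 ± 0.10, adjusted p = 0.792).

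The ISG15 cycle was followed enzyme by enzyme, because its members act on a single substrate. Isg15 itself, which is joined to other proteins, was at 8.14, 7.12 and 6.86 CPM in WT with PBS and 4.41, 3.37 and 5.95 CPM in KO with PBS (-0.69 ± 0.22, adjusted p = 0.0411). With LPS it reached 979, 1346 and 1393 CPM in WT and 1622, 1687 and 1340.3 CPM in KO, which overlapped (0.32 ± 0.15, adjusted p = 0.11). Its call under PBS was lost when libraries were scaled by totals alone (adjusted p = 0.0647) or left unfiltered for low counts (adjusted p = 0.0985), with the replicate number as a block (adjusted p = 0.073), and without any 1 of WT replicates 1, 2 and 3 with PBS, KO replicates 1 and 2 with PBS and WT replicate 2 with LPS (adjusted p = 0.0538 to 0.15). The activating enzyme Uba7 rose 13.3-fold with LPS in WT and 16.2-fold in KO, from 16.0 to 18.7 CPM and from 12.8 to 14.6 CPM. The conjugating enzyme Ube2l6 rose 9.69-fold and 13.5-fold, the ligase Herc6 31.3-fold and 49.1-fold, and Usp18, which removes ISG15 and damps the interferon receptor, 75.1-fold and 103-fold. Under PBS, Uba7 (-0.31 ± 0.08), Ube2l6 (-0.36 ± 0.09) and Usp18 (-0.48 ± 0.11) were lower in KO, and Herc6 was not called (-0.18 ± 0.10). With LPS, Herc6 alone of the 5 was higher in KO, at 302, 352 and 348 CPM in WT and 479, 458 and 451 CPM in KO (0.47 ± 0.08, adjusted p = 0.000141). That count is near the 22.1% of all genes tested called higher and is no result about the cycle. Usp18 was at 1069 to 1158 CPM in WT and 1069 to 1146 CPM in KO with LPS (-0.02 ± 0.09, adjusted p = 0.888). Per kilobase, the modifier stood far above its enzymes with LPS in WT, with 1639 CPM per kb for Isg15, 401 for Usp18, 237 for Ube2l6, 35.9 for Herc6 and 34.3 for Uba7.

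**Figure D4:**
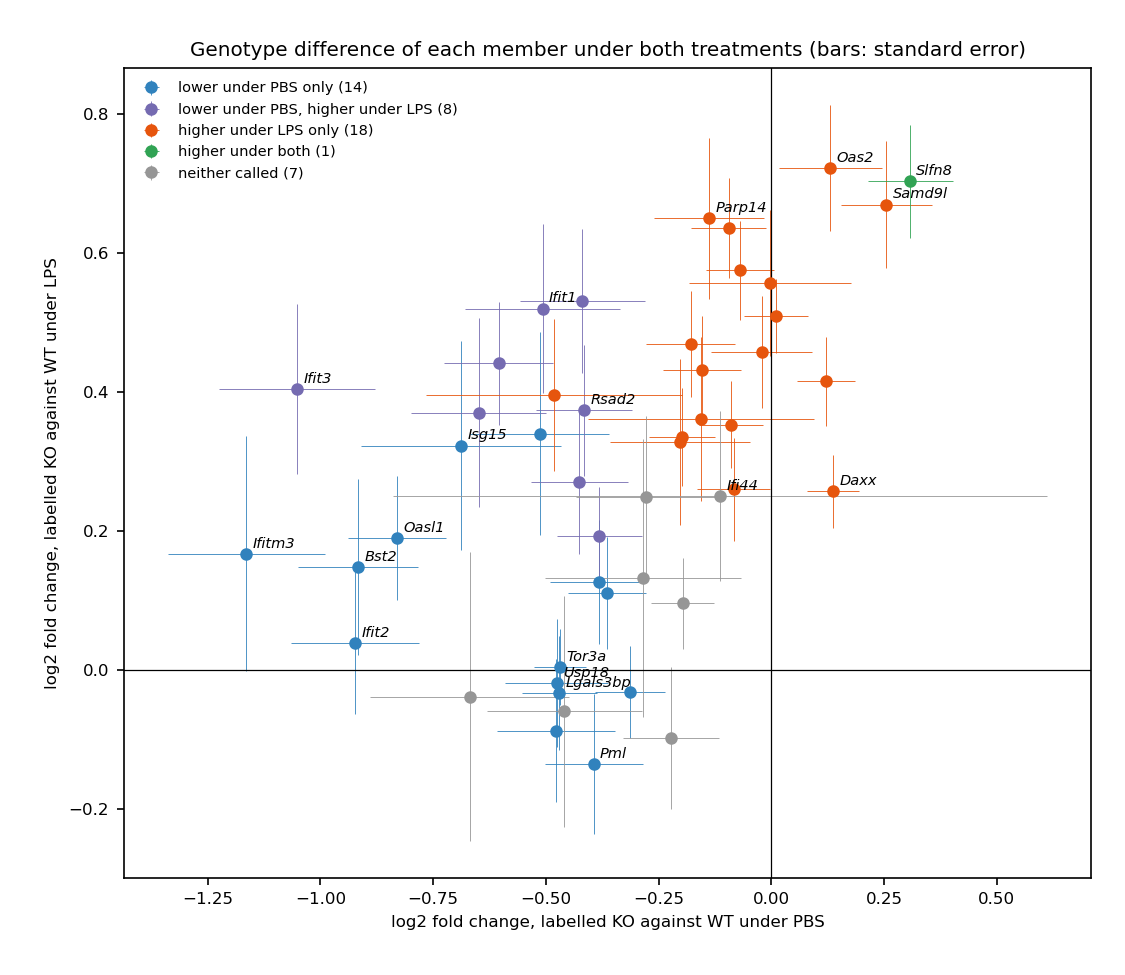
Log2 difference, KO label against WT, of each of the 48 members with PBS (horizontal) and with LPS (vertical), with standard errors and coloured by which differences passed the test. Most members lie in the upper left, lower with PBS and higher with LPS, with 14 called lower only with PBS, 18 called higher only with LPS and 8 called in both ways.

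The 2 differences were combined member by member. A group of 8 of 48 members was lower with PBS and higher with LPS (against 1.29% of all genes tested), namely Ifit1, Ifit3, Oas1a, Oas1g, Rsad2, Rtp4, Ifi47 and Phf11d. Of these, Oas1g alone kept both calls under all 19 alternatives, and 2 to 7 of the 8 kept both under any 1 of them. The lowest count, 2, was found with scaling by totals alone and without KO replicate 2 with PBS. With RLE scaling the PBS call of Ifit1 and the LPS call of Oas1a were lost, and with upper-quartile scaling the PBS call of Phf11d and the LPS calls of Oas1a, Rtp4 and Ifi47. Another 14 were lower with PBS with no call under LPS (against 5.28% of all genes), 18 were higher with LPS with no call under PBS (against 13.9%) and Slfn8 was higher under both (against 6.87%). The other 7, Oas3, Adar, Parp12, Helz2, Znfx1, Ifi44 and Xaf1, had no call under either (against 48.5%). Among the 14, Isg15, Ube2l6, Usp18, Oasl2, Cmpk2, Pml and Ifi35 lost the PBS call without KO replicate 1 with PBS. The sign was negative with PBS and positive with LPS in 34 of 48 members, against 16.5% of all genes. Across members, Spearman's rho between the PBS and the LPS difference was 0.482 (n = 48 genes, which share libraries and scaling), so that members lower with PBS tended to be those with the smaller excess under LPS.

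The rise with LPS was therefore compared between labels by the interaction of genotype with LPS. It was positive for all 48 members, with a median of 0.53 (0.12 to 1.46) against 0.01 for all genes tested. It passed the test for 34 of 48 (70.8%, against 9.78% of all genes tested called higher), and none was called lower (against 8.26%), at an unadjusted p under 0.05 or in DESeq2 either. The PBS and LPS differences above use the same libraries and are not separate evidence. The largest were those of Ifit3 (1.46 ± 0.21, adjusted p = 0.000419), which rose 179-fold in WT and 492-fold in KO, and Ifitm3 (1.33 ± 0.24, adjusted p = 0.00362), which rose 4.87-fold and 12.2-fold. Bst2 followed with 1.06 ± 0.18 (4.83-fold and 10.1-fold) and Oas1g with 1.05 ± 0.15 (17.9-fold and 36.9-fold). For Ifitm3 and Bst2 the LPS libraries of both labels overlapped. In the ISG15 cycle, Isg15 (1.01 ± 0.27), Herc6 (0.65 ± 0.12), Ube2l6 (0.47 ± 0.12) and Usp18 (0.46 ± 0.15) passed and Uba7 did not (0.28 ± 0.10, adjusted p = 0.0676). Usp18 was near the threshold (adjusted p = 0.0415) and did not pass under 13 of 18 alternatives (adjusted p = 0.0523 to 0.169), among them RLE, upper-quartile and total scaling and the replicate block; of the 12 libraries, it still passed without WT replicate 3 or KO replicate 3 with PBS or WT replicate 2 with LPS. Isg15 did not pass without the filter on low counts (adjusted p = 0.0621) or without WT replicate 1, KO replicate 1 or KO replicate 2 with PBS (0.0633 to 0.0699). Ube2l6 did not pass with total scaling (adjusted p = 0.0692) or without any 1 of the same 3 libraries (0.0505 to 0.055). Of the 34 members, 21 passed under all 18 alternatives. Without KO replicate 1 or 2 with PBS, 22 and 21 members passed, and without KO replicate 3 with PBS, 40 did. WT replicate 1 with LPS, which stood apart from the other WT libraries with LPS, did not decide the count, since 33 passed without it. Of the 8 macrophage markers 2 had a higher and 3 a lower interaction, and of the 5 skeletal muscle markers 2 had a lower one. Their part in the members' interaction was not tested.

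The genes that make and relay interferon were counted over a list of 20. With LPS, 16 were higher (against 36.5% of all genes tested) and 3 lower (against 40.2%) in WT, and the same numbers were found in KO (against 38.8% and 41.1%). Ifnb1 was at 0 in all 6 PBS libraries and at 0.463, 0.740 and 0.903 CPM in WT and 0.921, 0.857 and 0.933 CPM in KO with LPS, at least 6.47-fold and 8.50-fold above the floor of 3 counts per library, and the labels overlapped (0.36 ± 0.35, adjusted p = 0.435). The chain Ifnar1, of the receptor, was at 292 to 314 CPM in WT and 385 to 413 CPM in KO with LPS (0.42 ± 0.05, adjusted p = 1.13e-05 in edgeR). Under PBS, 5 of the 20 were lower (against 13.0%) and 1 was higher (against 12.3%) in KO. Irf7, the factor that amplifies interferon production, was the most changed, at 112, 119 and 99.4 CPM in WT and 30.2, 41.2 and 62.1 CPM in KO (-1.31 ± 0.21, adjusted p = 0.00113). Its KO replicates were ordered as the members were, with replicate 3 the highest. Stat2 (-0.35 ± 0.08) was lower, and Irf9 did not pass (-0.17 ± 0.08, adjusted p = 0.132). With LPS, 6 of 20 were higher and 3 lower in KO, which is near the 22.1% and 19.3% of all genes and no result about the list, and Irf9 (0.27 ± 0.07) was among the higher, while Irf7 (0.18 ± 0.19) and Stat2 (0.04 ± 0.07) were not called. The 3 that were lower were Ticam2, the adaptor that links TLR4 to TRIF (-0.31 ± 0.07), Tyk2 (-0.26 ± 0.09) and Socs1, an inhibitor of the receptor's kinases (-0.23 ± 0.07). The interaction was called higher for 7 of 20 (against 9.78%) and lower for 1 (against 8.26%), and was 1.49 ± 0.28 for Irf7, 0.44 ± 0.11 for Irf9, 0.39 ± 0.11 for Stat2 and 0.31 ± 0.07 for Ifnar1. The 1 called lower was Ticam2 (-0.31 ± 0.09).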

How the data were processed

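Total RNA of 12 macrophage libraries was sequenced as single 50-base reads on a BGISEQ-500. The authors deposited 1 table of expected counts (estimated counts per gene, not scaled between libraries) per library. The submitters' processing notes name Bowtie2, RSEM 1.3.1 and GRCm38.p6, whereas the paper's methods name STAR and HTSeq, so that the counter behind the fractional counts is uncertain. Values were rounded to whole counts. In R 4.3.3 with edgeR 4.0.16, genes were filtered with filterByExpr, libraries scaled by TMM (CPM use these sizes), and 1 robust quasi-likelihood model with 4 group means fitted. The 5 contrasts were tested two-sided with Benjamini-Hochberg adjustment over 12064 genes at 0.05. The fit was tested on simulated data (200 genes changed by 1 log2 unit among 11943), where 93.0% of changed genes were recovered for KO against WT under LPS and 84.0% for the interaction, with 0.0852% and 0.0681% of unchanged genes called. Of the members called, 0 exceeded 1 log2 unit under LPS and 8 in the interaction. Recovery of smaller changes was not tested. Exon lengths came from GENCODE M21, positions and promoters from RefSeq GRCm38.p6. Members and lists were chosen with earlier results of these data known. Named members are the 4 with the largest and the 4 with the smallest rise with LPS per label, the 4 with the largest called difference each way otherwise, and the 5 genes of the ISG15 cycle; the further members given with values were chosen by role after their values were seen. Alternatives were RLE, upper-quartile and total scaling, no filter, DESeq2 1.42.0, a fit to the groups compared, the replicate number as a block, and leaving out each replicate.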

Additional observations from a re-analysis of the deposited data

Results flagged for a closer look

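The rise with LPS differed between the WT and the KO label for 34 of 48 members (70.8%, against 9.78% of all genes tested called higher and 8.26% lower), by the interaction term of the edgeR fit (adjusted p under 0.05), and it was larger in the KO label for each of the 34. Among them 11, Ifitm3, Bst2 and Ifit2 included, were lower in KO with PBS and had no call under LPS. Another 13 were higher in KO with LPS and had no call under PBS, and 8 were called in both ways. Slfn8 was higher under both, and Parp12 had no call under either. Of the 34 calls, 21 were kept under all 18 alternatives and 13 were lost under at least 1, namely those of Isg15, Ube2l6, Usp18, Oas2, Oasl2, Samd9l, Dtx3l, Parp12, Slfn5, Slfn8, Nmi, Ifi35 and Lgals3bp. The count was 22 and 21 without KO replicate 1 or 2 with PBS. In the same term 2 of 8 macrophage markers were higher and 3 lower, and 2 of 5 skeletal muscle markers were lower. Their part in the members' interaction was not tested. Values are the interaction on the log2 scale. Among the IFIT genes it was 1.46 for Ifit3, 1.03 for Ifit1 and 0.96 for Ifit2. In the ISG15 cycle it was 1.01 for Isg15, 0.65 for Herc6, 0.47 for Ube2l6 and 0.46 for Usp18. Among the sensors and editors of double-stranded RNA it was 1.05 for Oas1g, 1.02 for Oasl1, 0.85 for Oasl2, 0.73 for Eif2ak2, 0.69 for Oas1a and 0.59 for Oas2. Among the nucleotide and RNA effectors it was 0.79 for Rsad2 and 0.41 for Samd9l. Among the membrane genes it was 1.33 for Ifitm3, 1.06 for Bst2 and 1.02 for Rtp4. Among the ADP-ribosylation genes it was 0.79 for Parp14, 0.44 for Parp9, 0.34 for Dtx3l and 0.29 for Parp12. Among the PML and TRIM genes it was 0.64 for Trim30a, 0.53 for Sp100 and 0.50 for Trim21. Among the schlafens it was 0.40 for Slfn8 and 0.29 for Slfn5. In the pair of interacting proteins it was 0.51 for Ifi35 and 0.48 for Nmi. Among the other interferon-induced genes it was 0.95 for Phf11d, 0.58 for Epsti1, 0.57 for Ifi47, 0.47 for Tor3a and 0.44 for Lgals3bp.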

How the results depend on the processing

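All 48 members were higher with LPS in both labels, and none was lower, under every scaling, without the filter, in DESeq2, in a fit to the groups compared, with the replicate block and without any 1 replicate. Scaling by totals alone moved the median log2 change of all genes with LPS to -0.71 in WT and -0.84 in KO and the members' medians to 3.55 and 4.01. Under PBS, the count of members higher in KO went from 1 to 3 with totals, 2 in DESeq2 and 3 in a fit to the groups compared, and from 0 to 2 without single replicates. The count of members lower under PBS was 18 to 25 under the other settings and 10 to 29 without single replicates. The count higher under LPS was 20 to 27 and 22 to 28, and that of the interaction 24 to 35 and 21 to 40, in the same order, with none lower. The interaction needs all 4 groups, so no fit to fewer was made. Replicates with the same number deviated together by r between -0.08 and 0.13, and those with different numbers by r between -0.18 and 0.17. Values this low cannot show whether the numbers pair the libraries. With the replicate block, 21 members were lower under PBS, 27 higher under LPS and 31 passed in the interaction, and the calls lost included those of Ifit1 and Isg15 (-0.69, adjusted p = 0.073 in edgeR) under PBS, Oas1a under LPS and the interaction of Usp18 (0.46, adjusted p = 0.055). No called difference of a member changed direction under any of these alternatives. Under LPS, the uncalled differences of Uba7 (-0.03) and Usp18 (-0.02) were just above 0 when a single library was left out, WT replicate 3 for Uba7 and either WT replicate 2 or replicate 3 of KO for Usp18. The ISRE core with a further A was held by 16 genes in place of 19. Ifi44 and Ifit3b were counted at 0.140 to 1.86 CPM with PBS, where genotype differences of their size could not be told from the counting error and spread.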
